A study of Papio anubis with 24 samples.

Results

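The regions described here are DNA methylation peaks called in baboon induced pluripotent stem cells (iPSC). They lie just beside, but not on, a peak called in baboon embryonic stem cells (ESC). They were selected on the positions of peaks in 2 lists. An iPSC peak on a numbered autosome was kept if it shared no base with any ESC peak and the nearest ESC peak began or ended at most 1000 bp away. This left 2655 peaks, which are 6.54% (exact 95% interval 6.30 to 6.79%) of the 40590 autosomal iPSC peaks and part of the 44434 peaks of the whole iPSC list. The other autosomal iPSC peaks were 26982 that overlapped an ESC peak, 8094 that lay from 1 to 10 kb from one, and 2859 that lay farther away.

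DNA methylation was measured by MeDIP-seq, in which sheared DNA carrying 5-methylcytosine is pulled down with an antibody and sequenced beside input DNA that was not pulled down. The cells were from Papio anubis, the olive baboon. The ESC were the lines B4 and B15, and the iPSC were the lines 160-2 and M14939#3. All were grown on feeder cells in a commercial human pluripotent cell medium, per the labels. Each line had 3 MeDIP and 3 input libraries, so that the 24 libraries formed 4 groups of 6. For 5 of the 6 M14939#3 libraries, title and cell line label differ in the number that follows the hash sign. Only 1 peak list per cell type was analysed here. There is therefore no error between replicates and no test between the cell types, and a difference between cell types cannot be told apart from one between lines or libraries. Intervals below cover counting error only, and they treat neighbouring peaks as independent, which they are not.

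In mammalian genomes methylation falls mostly on cytosines followed by guanine, and most such sites outside CpG islands are methylated in pluripotent cells. MeDIP enriches stretches that hold many methylated cytosines close together, so a peak marks dense methylation over a short stretch and does not give the level of a single cytosine. The edges of a peak depend on fragment length and on the point where enrichment over the local background stops passing the threshold of the peak caller. A stretch without a called peak can still be methylated, and no signal was read outside the peaks of either list. Reprogramming of somatic cells resets much of the methylation pattern, and reprogrammed lines are known to keep or gain methylation at some sites compared with embryo-derived lines.

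The gap between a kept iPSC peak and its nearest ESC peak had a median of 531 bp (interquartile range 339 to 745 bp, smallest 18 bp, largest 1000 bp). The gaps were used to choose the peaks and are given as a description. Summits, the points of highest enrichment, were a median of 818 bp apart (599 to 1049 bp). From the outer edge of the iPSC peak to that of the ESC peak, a pair spanned a median of 1101 bp (876 to 1330 bp). The ESC peak lay at the lower coordinate for 1336 pairs, or 50.3% (48.4 to 52.2%), so neither side was preferred beyond counting error. ESC peaks lay within 1000 bp on both sides of 265 of the 2655 (9.98%).

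Few gaps were very short. Only 35 peaks had a gap under 100 bp and 208 a gap from 100 to under 200 bp, whereas each later step of 100 bp up to 1000 bp held from 243 to 355 peaks. Pairs that shared a base were counted as overlapping and have no gap here. Within either list no 2 neighbouring peaks were closer than 102 bp. Between lists there is no such limit.

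The number of peaks beside an ESC peak was set against the same iPSC peaks moved along their chromosomes, as a description without a test. The peaks of each chromosome were moved together, by 50 evenly spaced fractions of its length with wrapping at the end (circular shifts). Moved peaks lay beside an ESC peak more often than the real ones, 4475 times on average (3738 to 6390 over the 50 shifts) against 2655. Moved peaks, however, rarely overlapped an ESC peak (3.71% on average, against 66.5% as deposited), so many more of them could lie beside one. The direction also turned with the ESC list limited to its 44434 peaks of highest −log10 q, where the real number was 1.80 times the mean of the shifts, against 0.593 times with the whole list. Among peaks without overlap the order turned: 19.5% (18.8 to 20.2%) of the 13608 real ones lay beside an ESC peak, against 11.5% (9.51 to 16.7%) of the moved ones, 1.70 times the mean of the shifts. The moved peaks without overlap, 39083 on average, held most of the peaks that overlap as deposited, so these shares are of unlike sets.

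Circular shifts can also carry peaks out of regions where both lists are dense, though the density at the moved positions was not measured. When the iPSC peaks were moved by only 5, 10, 20 or 50 kb to either side, 21.5% (20.2 to 22.6% over the 8 moves) of those without overlap lay within 1000 bp of an ESC peak. The real share of 19.5% was below all 8, at 0.907 times their mean. At this local scale, iPSC peaks without overlap were not found more often within 1000 bp of an ESC peak than moved ones, and the excess over circular shifts did not hold. The locally moved peaks without overlap, 37293 on average, again held most of the peaks that overlap as deposited. The shares here and below therefore do not isolate the placement of peaks without overlap. The difference lay at short gaps. Gaps under 200 bp made up 1.79% of real peaks without overlap and 5.27% (4.88 to 5.60%) of locally moved ones. Among peaks with a gap of 200 bp or more, 18.05% of real ones lay within 1000 bp, against 17.16% (16.06 to 18.02%) of the moved ones, so the real share stood just above the highest move.

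**Figure D1:**
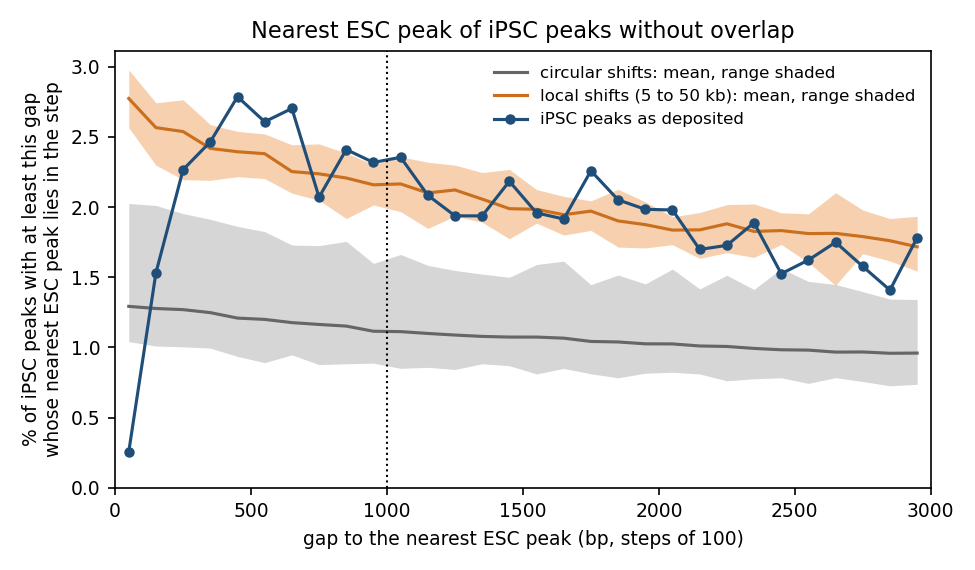
Share of iPSC peaks having at least a given gap whose nearest ESC peak lies in that step of 100 bp (y axis, percent; x axis, gap in bp), for the deposited iPSC list (blue points) and for circular (grey) and local (orange) shifts with their means and ranges. The deposited list starts at 0.257% under 100 bp, against 2.77% for local shifts, rises to 2.79% at 400 to 500 bp and falls to 2.07% at 700 to 800 bp, inside the range of the local shifts. The dotted line marks 1000 bp.

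The profile of gaps in steps shows where the deposited list left the local moves. Between 400 and 500 bp, 2.79% of the iPSC peaks with a gap of at least 400 bp met an ESC peak, against 2.39% (2.22 to 2.54%) for local moves, and between 600 and 700 bp 2.70% against 2.25% (2.10 to 2.44%). The deposited share was above all 8 local moves in 5 of the 6 steps from 400 to 1000 bp. The exception was the step from 700 to 800 bp, where 2.07% lay within the range of the moves, 2.05 to 2.45%. From 200 to 400 bp both deposited shares lay within the range of the moves. Margins over the highest move were small at 800 to 900 bp (2.41% against 2.38%) and 900 to 1000 bp (2.32% against 2.30%). Steps outside the limit were also above all 8 moves. These were 1700 to 1800 bp (2.26% against at most 2.04%) and 2000 to 2100 bp (1.98% against at most 1.93%). The values of neighbouring steps come from the same moves and are not independent.

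The iPSC peaks beside an ESC peak were ordinary peaks of their list in fold and width. The deposited fold enrichment, the pileup of fragments at the summit over the local background, had a median of 2.52 (interquartile range 2.16 to 2.95). It was 2.58 (2.21 to 3.05) for iPSC peaks on an ESC peak, 2.59 at 1 to 10 kb and 2.66 beyond 10 kb, and the ranges of all 4 classes overlapped widely. The median width was 238 bp (207 to 339 bp), against 243 bp for overlapping peaks and 231 bp beyond 10 kb. Of the 2655, 50 were 1 kb or wider (1.88%, 1.40 to 2.48%), close to the 2.10% of all autosomal iPSC peaks. The deposited −log10 q-value, the strength of evidence for the peak within its list, was 7.64 at the median, between the 9.03 of overlapping peaks and the 7.08 of the farthest class.

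The local background behind each peak was recovered from the deposited fold and p-value, as a number of fragments, and is given here as a multiple of the lowest background in its list (10.2 fragments for iPSC and 12.0 for ESC). For iPSC peaks the background fell from class to class with distance from the ESC list. The median was 2.64 for overlapping peaks, 2.44 (interquartile range 1.91 to 3.03) for those beside an ESC peak, 2.17 at 1 to 10 kb and 1.96 beyond 10 kb. The pileup, on the same scale, went from 7.09 over 6.21 and 5.80 to 5.20. Peaks beside an ESC peak thus stood between overlapping and distant peaks in both quantities, with interquartile ranges that overlapped between neighbouring classes.

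The nearest ESC peaks of the 2655 iPSC peaks were 2602 different peaks, of which 50 were nearest to 2 iPSC peaks and 1 to more. They had low folds and stood on a high background. Their median fold was 2.03 (1.73 to 2.36), against 2.28 (1.94 to 2.70) over all 151630 autosomal ESC peaks. Their background was 3.88 times the lowest value (2.76 to 5.45), against 2.39 (1.64 to 3.73) over all ESC peaks. This placed them between the other ESC peaks that overlapped an iPSC peak (median fold 2.07, background 4.48) and those that did not (2.33 and 2.10) in background, while their fold was below both medians. Their median width of 227 bp lay between the 257 bp and 209 bp of these groups.

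Many of these ESC neighbours were themselves shared sites. Of the 2655 pairs, 955 (36.0%, 34.1 to 37.8%) had an ESC peak that overlapped a different iPSC peak, against 18.1% of all autosomal ESC peaks. These 2 sets differ in location, since the neighbours were chosen for an iPSC peak within 1000 bp. Within 5 Mb of a chromosome end lay 42.1% of the neighbours and 21.7% of all autosomal ESC peaks. The part of location in the excess was not tested. No excess was seen where only overlaps of at least 50% of both peaks counted, with 14.95% against 15.9% of all ESC peaks. That rule also takes in iPSC peaks that overlap an ESC peak by less, 5551 peaks in place of 2655. Its pairs are thus not all side by side, and it cannot decide whether the excess holds for those that are. After peaks of each list within 500 bp were merged the excess was small, at 21.5% against 18.3%. In the 955 pairs the iPSC list had a second peak next to a site found in both cell types. The other iPSC peak lay a median of 447 bp from the kept one (251 to 702 bp). It had a median fold of 2.59, and the kept peak had the higher fold of these 2 iPSC peaks in 46.3% of cases (43.1 to 49.5%). Where the ESC peak overlapped several iPSC peaks, the distance was to the closest and the fold was that of the first along the chromosome. In the remaining 1700 pairs (64.0%) the ESC peak overlapped no iPSC peak, so each list had a peak of its own at neighbouring positions.

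The share of shared ESC neighbours was larger the closer they were. It was 43.6% (37.3 to 50.1%) at gaps under 200 bp, 41.6% from 200 to under 400 bp, 36.0% from 400 to under 600 bp, 31.8% from 600 to under 800 bp and 30.4% (26.5 to 34.4%) from 800 to 1000 bp. The decline went on outside the limit, with 28.2% between 1 and 2 kb, 25.1% between 2 and 5 kb, 20.2% between 5 and 10 kb and 18.8% (17.4 to 20.4%) between 10 and 50 kb. The last value lies near the share of all ESC peaks. No step occurred at 1000 bp.

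**Figure D2:**
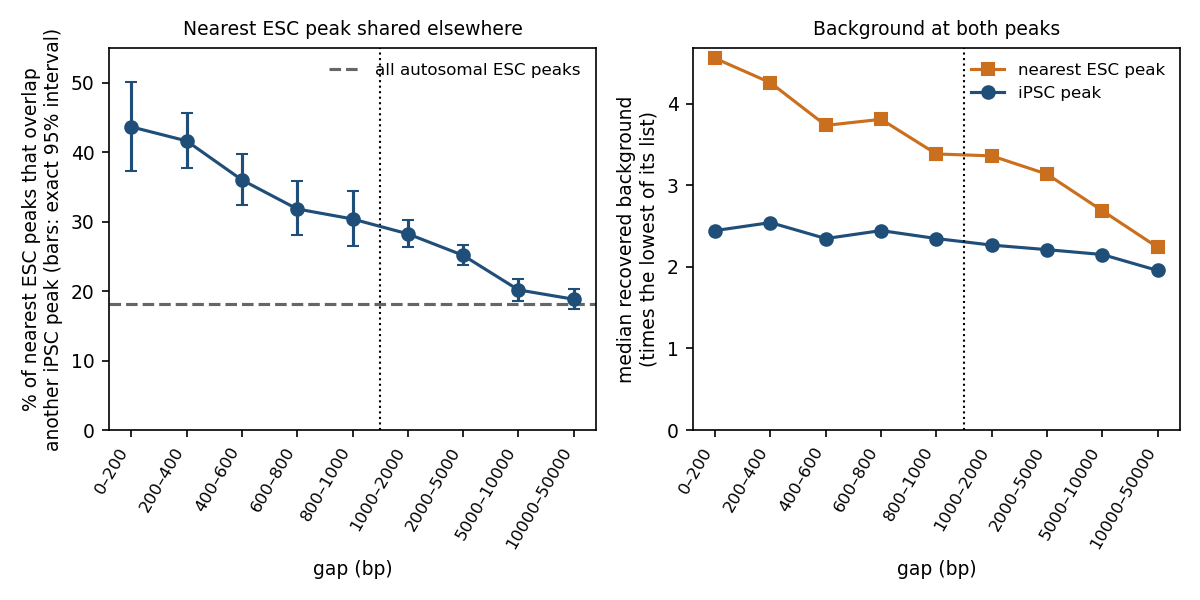
Left, share of nearest ESC peaks that overlap another iPSC peak (percent, exact 95% intervals) by gap in bp, with all autosomal ESC peaks as a dashed line; right, median recovered background of the iPSC peak (blue) and of its nearest ESC peak (orange), each as a multiple of the lowest in its list. The share declines at each step (43.6% to 30.4% inside the limit), the ESC background goes from 4.55 to 3.38 with a small rise at 600 to 800 bp, and the iPSC background stays between 2.35 and 2.54 inside the limit.

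The background of the ESC neighbour was also higher at short gaps, though not in strict order. Its median was 4.55 at gaps under 200 bp, 4.25, 3.73 and 3.81 in the next 3 steps of 200 bp, 3.38 at 800 to 1000 bp and 2.69 between 5 and 10 kb. The fold of the ESC neighbour moved the other way, from 1.89 to 2.13 and 2.17. At the iPSC peaks themselves the fold was 2.48 at gaps under 200 bp and 2.56 at 800 to 1000 bp, and the background 2.44 and 2.35, small moves by comparison. Whether the background of the ESC list has a part in the position of its peaks was not tested.

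Within the pairs the iPSC peak usually had the higher fold. This was so for 2020 of the 2655 pairs (76.1%, 74.4 to 77.7%), with a median log2 ratio of iPSC to ESC fold of 0.31 (interquartile range 0.02 to 0.62). Pairs of iPSC and ESC peaks that overlapped each other and nothing else gave nearly the same share, 77.0% of 26260, and a median log2 ratio of 0.27. A share this near that of overlapping pairs says nothing particular about peaks that lie side by side. It also changed with the ESC peaks listed. With the ESC list limited to its 44434 peaks of highest −log10 q, the fold was higher in iPSC in 45.1% of the pairs then found. The −log10 q-value was higher in iPSC in 52.2% of the deposited pairs (50.2 to 54.1%).

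The recovered pileup and background differed between the 2 kinds of pair. Relative to the lowest background of its list, the pileup was higher in iPSC in 26.9% (25.2 to 28.6%) of 2651 side-by-side pairs and in 2.52% (2.33 to 2.71%) of 26198 overlapping pairs. The background was higher in ESC in 83.7% (82.2 to 85.1%) and 97.0% (96.8 to 97.2%). The 2 peaks of a side-by-side pair are different stretches of DNA, so these shares compare neighbouring sites and not the same site in the 2 cell types. For 4 pairs no background could be recovered for a peak.

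Pairs with a shared ESC neighbour differed from those without in the ESC peak more than in the iPSC peak. Shared ESC neighbours had a median fold of 1.85 and a background of 5.52, and unshared ones 2.12 and 3.21. The iPSC folds were 2.58 and 2.50, and the iPSC backgrounds 2.47 and 2.35. The fold was accordingly higher in iPSC in 84.8% (82.4 to 87.0%) of pairs with a shared neighbour and in 71.2% (69.0 to 73.3%) of the others. Gaps were somewhat shorter next to shared neighbours, with medians of 488 and 556 bp.

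**Figure D3:**
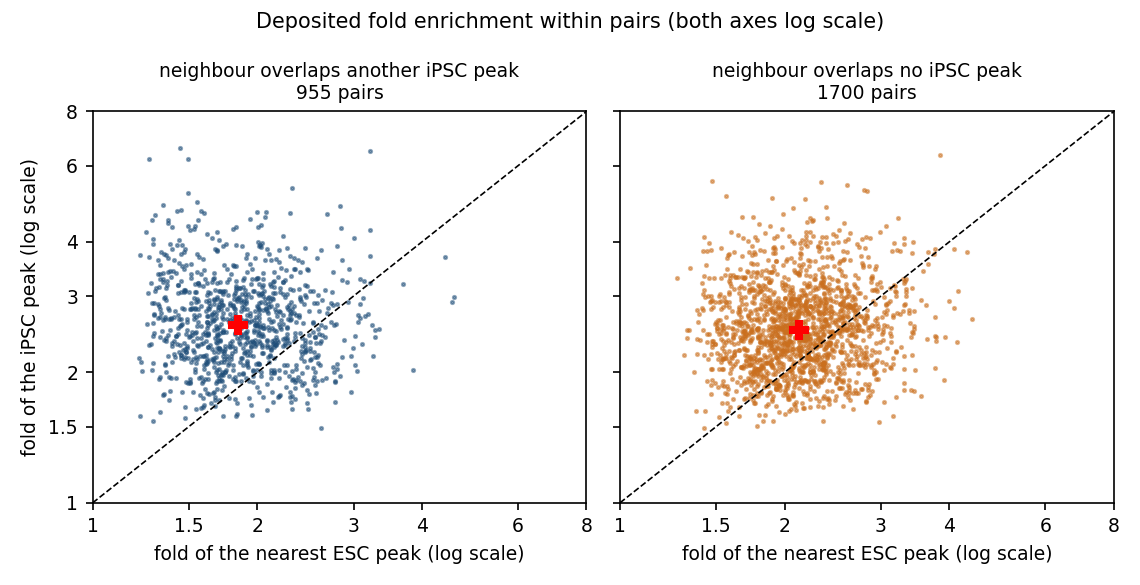
Deposited fold of the iPSC peak (y axis) against that of its nearest ESC peak (x axis), both on log scales, for the 955 pairs whose ESC peak overlaps another iPSC peak (left) and the 1700 whose ESC peak overlaps none (right); 1 point is 1 pair, the red cross marks the medians and the dashed line equal folds. More points lie above the line on the left (84.8%) than on the right (71.2%), and the cloud on the left reaches lower ESC folds.

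Peaks of both lists were also joined into chains wherever the next peak overlapped or lay within 1000 bp. The 2655 iPSC peaks fell into 2584 chains, of which 2515 held 1 of them, 68 held 2 and 1 held more. Isolated pairs of 1 iPSC and 1 ESC peak accounted for 1198 of the peaks (45.1%), with a median length of 1099 bp. Chains that also held an overlapping site accounted for 1122 (42.3%), with a median length of 1561 bp. The remaining 335 (12.6%) lay in chains of several peaks, none of them overlapping. The chain with most kept peaks ran from 10834474 to 10837036 on chromosome 4, where 1 ESC peak was joined by 5 iPSC peaks, 4 of them within 1000 bp of it and 1 on it. This chain was picked for its number of peaks, with the values known.

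Positions below follow the deposited lists, with the first base of a chromosome counted as 1. No label or header names their build, and the only gene table at hand is of another assembly, so no gene, promoter or sequence is assigned. The rule for naming took the 10 peaks of highest fold, which ran from 5.26 to 6.60. The highest lay on chromosome 3 from 176708484 to 176708826, with a fold of 6.60. Its ESC neighbour, 321 bp away from 176709148 to 176709443, had a fold of 1.44 and a background of 10.6 times the lowest, and it overlapped another iPSC peak. The second lay on chromosome 4 from 10836715 to 10837036, in the chain just described, with a fold of 6.48 at a gap of 819 bp from an ESC peak of fold 3.21. The third lay on chromosome 20 from 64153207 to 64153505, with a fold of 6.35, and its ESC neighbour 656 bp away had a fold of 3.85 and overlapped no iPSC peak.

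The folds of their ESC neighbours ran from 1.27 to 3.85. That each was below its iPSC peak follows from the choice, since no ESC neighbour of the 2655 had a fold above 4.58. The 10 stood on low iPSC backgrounds of 1 to 2.15 times the lowest value, and a fold is a ratio to that background. They were also wide, at 299 to 1012 bp with a median of 662 bp, against 238 bp over all 2655. On chromosome 19 from 25795033 to 25795784 the contrast was largest among them: the iPSC peak had a fold of 6.23 on a background of 1.66, and the ESC peak 505 bp away a fold of 1.27 on a background of 10.4. That ESC peak had a −log10 q of 1.34, close to the lowest of its list (1.30), and it overlapped another iPSC peak.

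The 5 widest peaks spanned 1675 to 3183 bp. The widest lay on chromosome 3 from 178030066 to 178033248, and 268 bp beyond its end stood an ESC peak of 227 bp with nearly the same fold, 2.60 against 2.83. The others lay on chromosome 15 (4049797 to 4051643), chromosome 14 (17895242 to 17897080), chromosome 19 (10150201 to 10152026) and chromosome 1 (335388 to 337062). Their folds were 2.26 to 4.28, and those of their ESC neighbours 1.30 to 2.22. In these places a broad iPSC peak ended beside a narrower ESC peak. On chromosomes 15, 14 and 19 that ESC peak overlapped another iPSC peak, and on chromosomes 3 and 1 it overlapped none.

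The last rule for naming took the 5 kept iPSC peaks whose ESC neighbour had the strongest evidence. These ESC peaks lay on chromosome 6 from 70908 to 71684 (−log10 q 34.6, fold 3.86) and chromosome 19 from 38558748 to 38558984 (33.9, fold 3.25). The next lay on chromosome 6 from 172522684 to 172522963 (32.3), chromosome 16 from 72188734 to 72188974 (31.6) and chromosome 9 from 111167516 to 111167778 (30.8). All 5 overlapped another iPSC peak. The kept iPSC peak beside them, at gaps of 219 to 967 bp, had a lower fold in each case, from 1.90 to 2.90 against 2.78 to 4.53 in ESC. Since the ESC peaks were picked for their evidence, the lower iPSC folds are a description only.

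Peaks beside an ESC peak were concentrated toward chromosome ends. Within 5 Mb of an end lay 1119 of them (42.1%, 40.3 to 44.1%), against 32.2% of all autosomal iPSC peaks. The share was 33.7% (33.2 to 34.3%) for overlapping iPSC peaks, 31.8% (30.8 to 32.8%) at 1 to 10 kb and 9.51% (8.46 to 10.6%) beyond 10 kb. Within 2 Mb the shares were 22.6%, 18.1%, 14.1% and 2.48%, with the peaks beside an ESC peak first, followed by the other classes in the same order. The share within 5 Mb was larger than that of overlapping peaks on 18 of 20 chromosomes. The widest margin was on chromosome 8, at 62.1% against 42.0%, and the exceptions were chromosome 2 (17.4% against 18.5%) and chromosome 19 (28.8% against 31.0%). ESC peaks are themselves dense near the ends, with 21.7% of all autosomal ones within 5 Mb, though this share is below that of the iPSC list. Within 50 kb to either side, the peaks beside an ESC peak had a median of 14 ESC peaks (interquartile range 8 to 23), against 13 for overlapping peaks, 11 at 1 to 10 kb and 4 beyond 10 kb. The classes were themselves set by distance to ESC peaks, and the counts include the ESC peak that set the class. Beyond 10 kb the inner 10 kb is empty by definition, so the order of these medians is partly fixed by the choice. The part of this density in the position toward the ends was not tested.

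**Figure D4:**
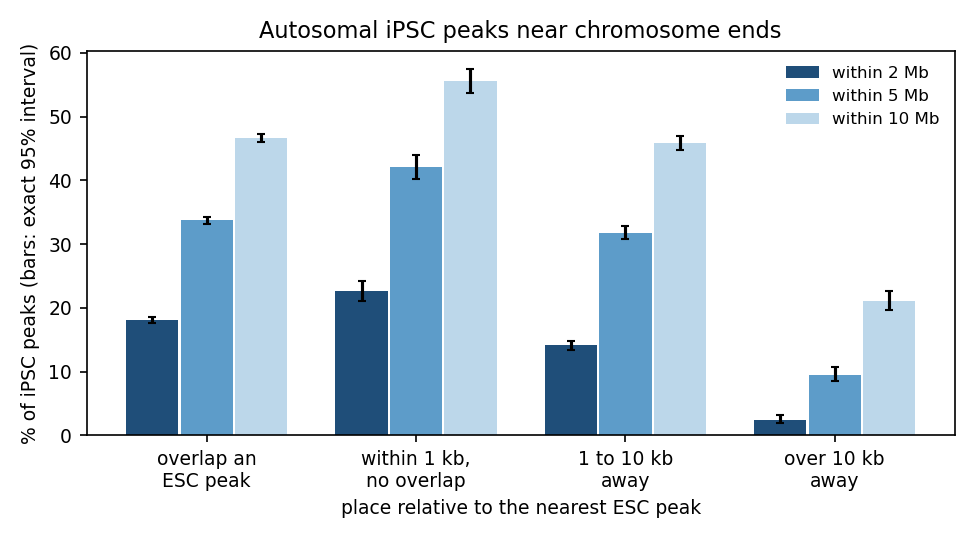
Share of autosomal iPSC peaks within 2, 5 and 10 Mb of a chromosome end (bars from 0, percent, with exact 95% intervals) for 4 classes of distance to the nearest ESC peak. Peaks within 1 kb of an ESC peak without overlap have the highest share at each limit (22.6%, 42.1% and 55.6%), and peaks over 10 kb away the lowest (2.48%, 9.51% and 21.1%).

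By chromosome, the share of iPSC peaks without overlap that lay beside an ESC peak ran from 13.6% (10.7 to 16.9%) on chromosome 2 to 28.6% (25.5 to 31.9%) on chromosome 19. Chromosome 18 followed with 26.1% (21.5 to 31.2%) and chromosome 3 with 23.8% (21.3 to 26.6%), and these 3 highest did not differ beyond their intervals. Chromosome 19 also had the most for its length, 4.54 per Mb against 1.02 over all autosomes and 0.366 on chromosome 2. ESC peaks were also densest on chromosome 19, at 142.9 per Mb, and sparsest on chromosome 2, at 40.6 per Mb. Between them the order was not strict, since chromosome 10 had 90.1 ESC peaks per Mb and a share of 18.9%, and chromosome 18 had 58.7 per Mb and 26.1%. Local moves of the iPSC peaks gave 31.0% on chromosome 19 and 12.5% on chromosome 2. The deposited share was below the mean of the local moves on 14 of 20 chromosomes. Its interval lay wholly below that mean on 7 and wholly above it on 0.

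**Figure D5:**
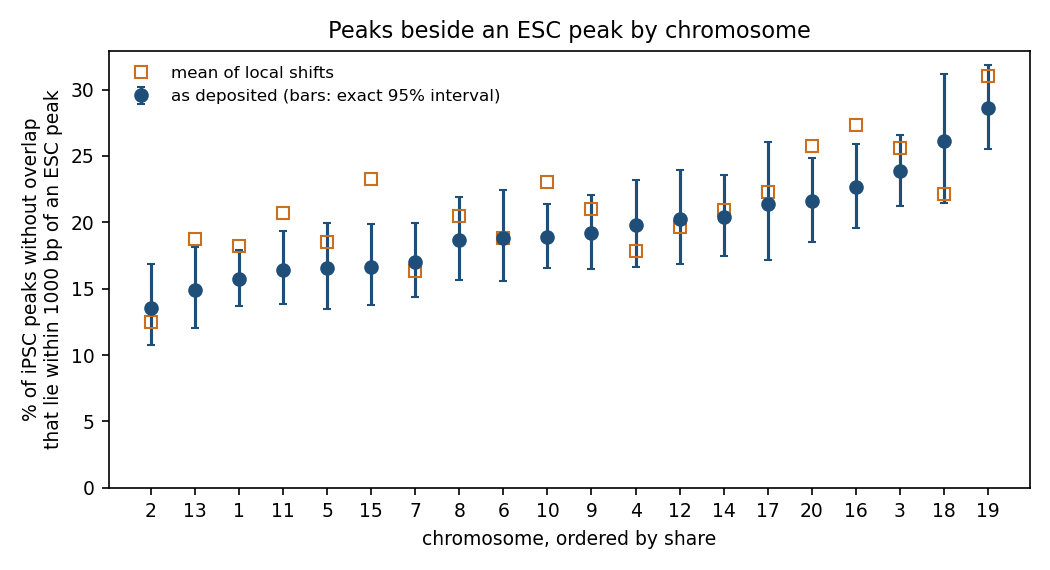
Share of iPSC peaks without overlap that lie within 1000 bp of an ESC peak (y axis, percent, with exact 95% intervals) on the 20 autosomes in order of that share, beside the mean of 8 local shifts (open squares). Deposited shares run from 13.6% on chromosome 2 to 28.6% on chromosome 19, and the local shifts from 12.5% to 31.0% on the same 2 chromosomes.

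The 2655 peaks were spread over 983 of the 2604 windows of 1 Mb, and 465 windows held a single one. Windows with 5 or more numbered 156 and held 1271 of the peaks. The window with most was the second Mb of chromosome 14 (from 1 to 2 Mb), where 23 of 128 iPSC peaks lay beside an ESC peak and 72 overlapped one, among 252 ESC peaks. The first Mb of chromosome 6 held 18 of 163 iPSC peaks, with 117 overlapping. The third window, from 33 to 34 Mb on chromosome 3, lay far from either end and held 18 of 132, with 91 overlapping. All 3 windows were dense in both lists.

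Across the limit of 1000 bp the values were close. The 258 iPSC peaks with gaps over 900 and up to 1000 bp had a median fold of 2.62 and width of 240 bp, and the 255 just outside, up to 1100 bp, 2.50 and 236 bp. At the limit of overlap they were farther apart. The 36 peaks at gaps of up to 100 bp had a median fold of 2.32 and a −log10 q of 5.57. The 40 iPSC peaks that overlapped ESC peaks by at most 50 bp had 2.06 and 3.87. Both groups had lower medians than the 2.52 and 7.64 of all 2655.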

How the data were processed

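The 24 libraries (4 groups of 6) were grouped by title. Per the submitters' processing notes, the tools included MACS2, deepTools, Picard 2.239 and SAMtools 1.10. The sources used here do not give aligner, build, MACS2 options or how libraries were combined. Each of the 2 deposited lists gives per peak a deposited fold (a ratio to background), −log10 values of p and q as deposited, and a deposited score, which was not used. The narrowest peak was 177 bp (ESC) and 190 bp (iPSC).

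Gaps are later start minus earlier end in the 0-based columns. Counts matched bedtools 2.31.1. Pileup and background were solved from fold, with 1 added to both terms, and a Poisson tail p. The iPSC pileup carried a fitted factor of 0.690. No solution was found for 118 peaks in ESC and 13 in iPSC. The neighbour rule and the recovery were tested on simulated data, for the recovery made with the same formulas. The shifts were checked only without a move, so moved positions and wrapping were not checked. Circular shifts were 50 fixed fractions of the span, which ends at the last peak. Intervals are exact Clopper-Pearson.

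Depth per library is unknown. Peaks run past the last gene of Panubis1.0 on 11 of 21 chromosomes, so genes were not assigned. The named positions were the 10 of highest fold, the 5 widest, the 5 with the ESC neighbour of highest −log10 q, and the 3 windows of 1 Mb with most. The regions, lists and rules were chosen with earlier results of these data known. Alternatives were other gap limits, a stricter q, merging, a shorter ESC list, another overlap rule, further sequences and local shifts. Scripts ran under Python 3.11.15 with scipy 1.17.1, pandas 2.3.3, numpy 2.4.6 and, for plots, matplotlib 3.10.9.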

Additional observations from a re-analysis of the deposited data

Results flagged for a closer look

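The same arrangement was seen on sequences that the values above leave out. On chromosome X, 30 of 601 iPSC peaks (4.99%, exact 95% interval 3.39 to 7.05%) lay within 1000 bp of an ESC peak without overlap, which is 13.1% of the 229 X peaks without overlap. On unplaced scaffolds and the mitochondrial sequence, 239 of 3243 (7.37%, 6.49 to 8.32%) did, or 20.8% of the 1150 without overlap. Median gaps were 481 bp and 475 bp. The autosomal shares were 6.54% and 19.5%.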

How the results depend on the processing

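No paired analysis was possible because the lists carry no column per replicate, and no replicate could be left out for the same reason. The number of peaks beside an ESC peak (2655) was 1225 at a gap limit of 500 bp, 4720 at 2000 bp and 5551 where only overlaps of 50% of both peaks counted as overlap; it stayed within 1.5 times in the other alternatives. The share of shared ESC neighbours (36.0%) was 40.3%, 32.6% and 14.95% in those 3, 34.1% at a −log10 q of at least 5, 21.5% after merging within 500 bp and 47.0% with the ESC list at the iPSC length. The share over all ESC peaks also changed with the setting. It was 18.1% at both gap limits, 15.9% with the 50% rule and 17.0% at the stricter q. After merging it was 18.3%, and with the shorter ESC list 29.1%. The share of pairs with the higher fold in iPSC (76.1%) was 78.8% at 500 bp, 81.5% at the stricter q, 72.3% after merging, 78.9% with the 50% rule and 45.1% with the shorter ESC list, which keeps the ESC peaks of highest q. The share within 5 Mb of an end (42.1%) was 44.5% at 500 bp, 46.6% at the stricter q and 50.6% with the shorter ESC list; 22.6% lay within 2 Mb and 55.6% within 10 Mb. The number over the mean of circular shifts (0.593) was 0.510 at 500 bp, 0.834 at the stricter q, 0.494 after merging and 1.80 with the shorter ESC list, and 0.331 over local shifts. The share among peaks without overlap over that of the shifts (1.70) was 1.46, 1.93, 1.45 and 2.48 in the same 4, and 0.907 over local shifts. Beyond what each alternative's own construction changes, the cause was not tested. Merging within 500 bp was chosen after seeing the data, because merging within 100 bp leaves both lists as they are. Shifts were not run for the 50% rule or for scaffolds. Adding chromosome X, or X and scaffolds, moved none of the 3 shares beyond its counting interval.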
